A study of Caenorhabditis elegans with 2 samples.

Results

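The proteasome subunit genes described here were 31 Caenorhabditis elegans genes, taken by symbol and by no measured value: 14 genes of the core particle and 17 of the regulatory particle. All 31 symbols were found among the 19973 nuclear protein-coding genes of the annotation. The measurement was chromatin immunoprecipitation and sequencing (ChIP-seq) of SNPC-3.4, also called T02C12.2, one of the worm proteins related to SNAPC3, a component of the SNAP complex that activates small nuclear RNA genes. The chromatin came from whole young adult hermaphrodites of strain YL497, a stable transgenic line in which the protein has GFP-FLAG at its C terminus, and an antibody to GFP was used. There was 1 group of 2 biological replicates, with no untagged or treated group, so no conditions could be compared and values are given gene by gene against all protein-coding genes. Whether the line also keeps an untagged copy of the gene is not given in the sources used here, and whole animals mix all tissues.

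The proteasome is the protease that degrades proteins marked with ubiquitin. Its core particle is a stack of rings of alpha subunits, which gate the entrance, and beta subunits, some of which carry the proteolytic sites. The regulatory particle has a base, with a ring of ATPases that unfold substrates, and a lid, which removes ubiquitin before degradation. Cells keep the subunits in balance, and in C. elegans the transcription factor SKN-1 is known to raise the expression of subunit genes when proteasome function is impaired. The SNAP complex is best known for recruiting RNA polymerases to small nuclear RNA genes, not for protein-coding promoters.

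Each deposited list gives regions with a summit and a signal value, whose scale is not stated, so the place of a region within its list (1 is the highest signal) is given beside it. A gene is called bound when a summit of the authors' thresholded list of 2101 peaks lay within 500 bp of its annotated 5′ end. A gene without such a peak could still have a weaker candidate region among the 30000 of the pooled list. All 2101 peaks were also the top 2101 regions of the pool by signal, down to 50.8, and their median was 72.0. No read counts were in these lists, so the depth is unknown and no interval can be put on a single signal value.

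Of the 31 proteasome subunit genes 12 were bound (38.7%), where 7.04% of all protein-coding genes were. No subunit gene lies on the X chromosome, where binding was rare, and among autosomal genes the share was 7.99%. The bound genes were pas-4, pas-6, pbs-1, pbs-2, rpt-2, rpt-6, rpn-2, rpn-3, rpn-5, rpn-7, rpn-9 and rpn-11. A further 17 had a weaker candidate region, which makes 29 of 31 with any region in the pooled list (93.5%), where 37.7% of all protein-coding genes had one. The remaining genes, rpt-3 and rpt-4, had none within 500 bp. By particle, 4 of 14 core genes and 8 of 17 regulatory genes were bound. The difference between the particles was not tested.

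With the exception of rpn-3, the signals were moderate. Bound subunit genes had a median signal of 69.3 and a range of 53.5 to 167, beside a median of 73.0 over all 1406 bound protein-coding genes. The subunit genes with a candidate region alone ran from 19.5 to 49.4, with a median of 38.5. Just inside the authors' threshold were rpn-11 at 53.5 and rpn-7 at 53.8, and just outside it were rpt-1 at 49.4 and rpn-1 at 49.2. Ranked as percentiles of the pooled list, where 100 is the highest signal, the 29 subunit genes with a region had a median percentile of 91.9, beside 66.1 for all protein-coding genes with a region.

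**Figure D1:**
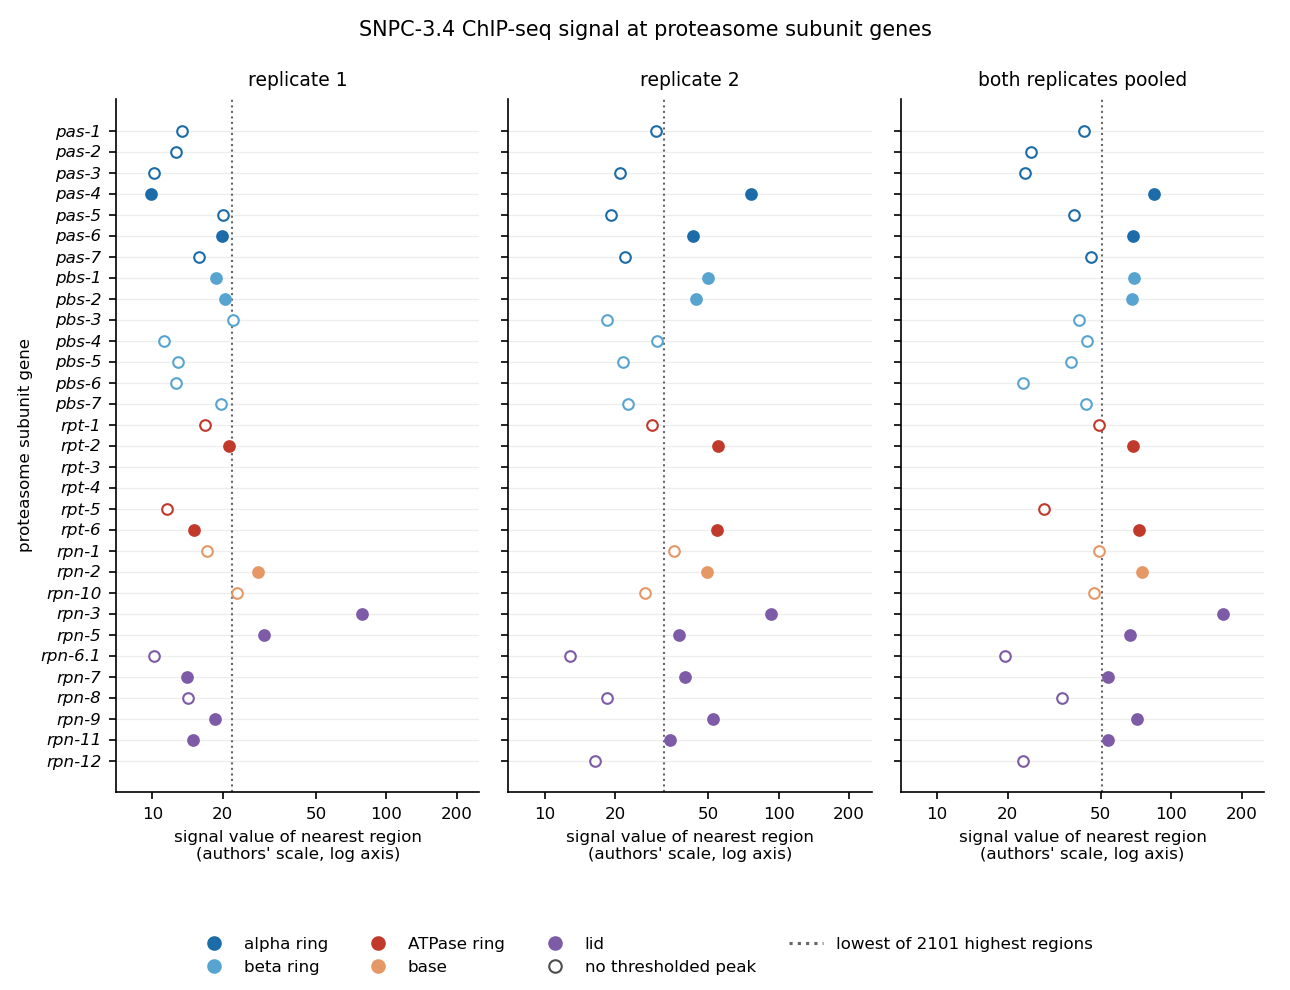
Signal value of the region nearest to the 5′ end of each proteasome subunit gene (log axis), in replicate 1, replicate 2 and the pool of both, coloured by subcomplex. Filled points are the 12 genes with a thresholded peak and the dotted line is the lowest signal among the 2101 highest regions of each list: 5 genes reach it in replicate 1 and 13 in replicate 2.

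The alpha ring, whose subunits form the gate of the core, had 2 bound genes of 7. At pas-4 (8727218 to 8728487 on the minus strand of I) the pooled signal was 84.7 and the summit lay 134 bp upstream. Its replicates were far apart, with a signal of 9.85 at place 20591 in replicate 1 and 76.5 at place 321 in replicate 2, a mean of 43.2 ± 47.1 (SD, n = 2). The peak of pas-4 was thus a peak of replicate 2: of the 1384 bound protein-coding genes with a region in both replicates, 9 had a ratio of replicate 2 to replicate 1 as high as its 7.76, pas-4 included. At pas-6 (V, 5583161 to 5584343, minus strand) the pooled signal was 69.0, with 19.8 in replicate 1 and 43.1 in replicate 2.

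The other 5 alpha genes had candidate regions alone. The highest were pas-7 with a pooled signal of 45.5 and pas-1 with 42.6, both within the 3000 highest regions. At pas-1 the nearest summit was 60 bp upstream in replicate 2 but 420 bp downstream in replicate 1, so the replicates did not mark the same site. The signal of pas-5 was 20.0 in replicate 1 and 19.2 in replicate 2, for a pooled signal of 38.5. The lowest were pas-2 at 25.2, with no region in replicate 2, and pas-3 at 23.7.

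The beta ring carries the proteolytic activity, and again 2 of 7 genes were bound. These were pbs-1, for the subunit with caspase-like activity, and pbs-2, for the subunit with trypsin-like activity. The signal at pbs-1 (IV, 1708814 to 1709745, minus strand) was 18.7 in replicate 1 and 50.1 in replicate 2, and 69.6 in the pool. At pbs-2 (12967216 to 12968280 on the minus strand of I) it was 20.5 and 44.4, and 68.1 in the pool. The 2 genes were alike in all 3 lists, higher in replicate 2 each time.

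The gene of the chymotrypsin-like subunit, pbs-5, had a candidate region alone, with a pooled signal of 37.3 and its summit 34 bp upstream. The structural beta genes pbs-4 (43.6), pbs-7 (43.2) and pbs-3 (40.6) were a little higher and lay at places 2846, 2908 and 3341. At pbs-3 the order of the replicates was reversed, with 22.1 in replicate 1, enough for its 2101 highest regions, and 18.4 in replicate 2. The summit at pbs-3 fell in the 3′ UTR of ulp-2, a gene for a SUMO protease that ends 23 bp before it on the same strand. The lowest beta gene was pbs-6 at 23.2, with no region in replicate 2.

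Of the 6 ATPase genes, whose products unfold substrates and thread them into the core, rpt-2 and rpt-6 were bound. The rpt-2 gene (V, 6016059 to 6017669, minus strand) had 21.3 in replicate 1, 54.9 in replicate 2 and 68.7 in the pool. At rpt-6 (III, 12370456 to 12372607, plus strand) the values were 15.0, 54.4 and 72.6, and the summits of the replicates were 131 bp apart. The rpt-1 gene was the highest subunit gene without a peak, at place 2214.

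The ATPases were also the one subcomplex with genes that lacked any region. At rpt-3 the nearest summit was a thresholded peak with a signal of 74.3 lying 713 bp upstream, in the 3′ UTR of chtb-2, the next gene on the same strand. At rpt-4 the nearest candidate summit was 1195 bp downstream, inside an intron of rpt-4 itself, at place 3567. The region counted for rpt-5 had a pooled signal of 28.6 and lay 494 bp upstream, 115 bp from the 5′ end of the divergent gene rad-8.

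In the base, rpn-2, which encodes a large scaffold subunit, was bound (III, 6199184 to 6202594, plus strand). Its signal was 28.3 in replicate 1, 49.6 in replicate 2 and 75.2 in the pool, at places 1155, 894 and 964, so this gene was among the 2101 highest regions of each replicate. The other large scaffold gene, rpn-1, had 17.1, 35.8 and 49.2, at place 2224 of the pool. For rpn-10, the gene of a ubiquitin receptor, the values were 23, 26.8 and 47.0. At rpn-10 the pooled summit lay 99 bp downstream of the 5′ end, in an intron, while that of replicate 1 lay 36 bp upstream.

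The lid had 5 bound genes of 8, and with rpn-3 the strongest peak of the whole set. At rpn-3 (III, 8447353 to 8449346, plus strand) the signal was 78.8 in replicate 1, 93.1 in replicate 2 and 167 in the pool, with a replicate mean of 86.0 ± 10.1 (SD, n = 2). These are places 104, 207 and 148, and the summits of both replicates were at the same base, 163 bp upstream. No other subunit gene was within the 500 highest regions of the pool.

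Among the other lid genes, rpn-5 (II, 4696418 to 4698427, minus strand) had 29.9 in replicate 1, 37.5 in replicate 2 and 67.0 in the pool. With rpn-2 and rpn-3 it was the last of 3 subunit genes within the 2101 highest regions of both replicates. The gene of the deubiquitinase, rpn-11 (II, 4043055 to 4044546, minus strand), had 14.9, 34.2 and 53.5. At rpn-9 the values were 18.6, 52.2 and 71.5, and at rpn-7 they were 14, 39.8 and 53.8. Each of these last 3 genes was within the 2101 highest regions of replicate 2 and outside those of replicate 1.

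The lid genes that were not bound included rpn-6.1, whose product clamps the lid to the core and whose level is known to set proteasome activity in C. elegans. Its nearest region was the weakest of the set, with a pooled signal of 19.5 at place 26044. A thresholded peak with a signal of 64.1 lay farther away, 667 bp downstream of the annotated 5′ end, in an intron of rpn-6.1. This peak was within 500 bp of another annotated transcript start of the gene. The partner of the deubiquitinase, rpn-8, had a pooled signal of 34.2 inside its coding sequence, and rpn-12 had 23.3 with no region in replicate 1.

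The replicates contributed unequally to these calls. Among the 2101 highest regions of each replicate alone, replicate 2 reached 13 of the 31 subunit genes, where it reached 7.01% of all protein-coding genes, and replicate 1 reached 5, where it reached 6.19%. All 12 bound genes were in the former set and 3 of them in the latter, which held pbs-3 and rpn-10 as well. Over all 1406 bound protein-coding genes 85.2% were in the top of replicate 2, 69.8% in that of replicate 1 and 58.3% in both. Any candidate region within 500 bp was found for 28 subunit genes in replicate 1 (36.1% of all protein-coding genes) and for 26 in replicate 2 (37.9%).

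The signal was higher in replicate 2 at 86.3% of the 1384 bound protein-coding genes with a region in both replicates, so places are given as well. The median place of the 12 bound subunit genes was 2949 in replicate 1 and 886 in replicate 2, beside 1336 and 1117 over all bound protein-coding genes. By place 10 of the 12 stood higher in replicate 2, as did 59.1% of all bound genes. In replicate 1 the bound genes (9.85 to 78.8) and the subunit genes with a candidate region alone (10.2 to 23) overlapped widely. In replicate 2 they overlapped by rpn-1 and rpn-11 only, with 34.2 to 93.1 against 12.8 to 35.8. The pool was made from these same replicates, which are therefore no independent check of it, and the cause of the unequal contribution was not tested.

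**Figure D2:**
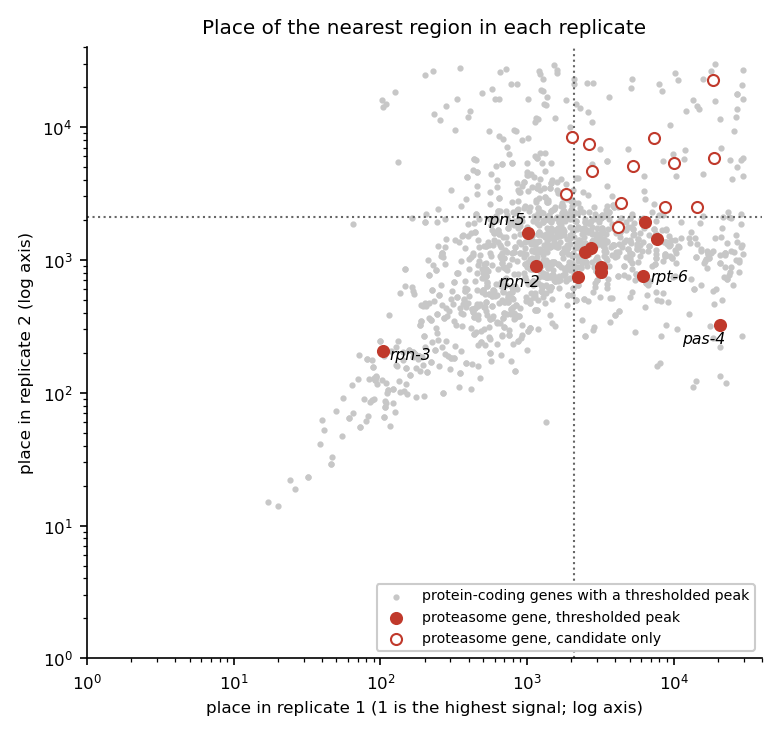
Place of the region nearest to the 5′ end in replicate 1 (x axis) against replicate 2 (y axis), both on log axes with 1 as the highest signal. Grey points are protein-coding genes with a thresholded peak, red points are the proteasome subunit genes with a region in both replicates (filled with, open without a thresholded peak) and dotted lines mark place 2101. The rpn-3 gene is high in both, and pas-4 is at place 20591 in replicate 1 and 321 in replicate 2.

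Most summits lay upstream of the genes and outside their transcripts. Of the 12 bound subunit genes 10 had the summit upstream, where 86.3% of all bound protein-coding genes did. Counting upstream as negative, the median position over all 12 was -196 bp from the 5′ end, and over all 1406 bound protein-coding genes it was -174 bp. Those with a summit at the start of the transcript were rpn-5, 16 bp downstream, and rpn-11, 22 bp downstream, both in the 5′ UTR. The summits of pas-4 and rpt-2 lay in exons of the annotated non-coding RNAs C36B1.16 and F29G9.10, and the other 8 between genes. The replicates placed the summit within 50 bp of each other at 9 of the 12 bound genes. They did so at 8 of the 13 genes with a candidate region alone and a region in both replicates.

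**Figure D3:**
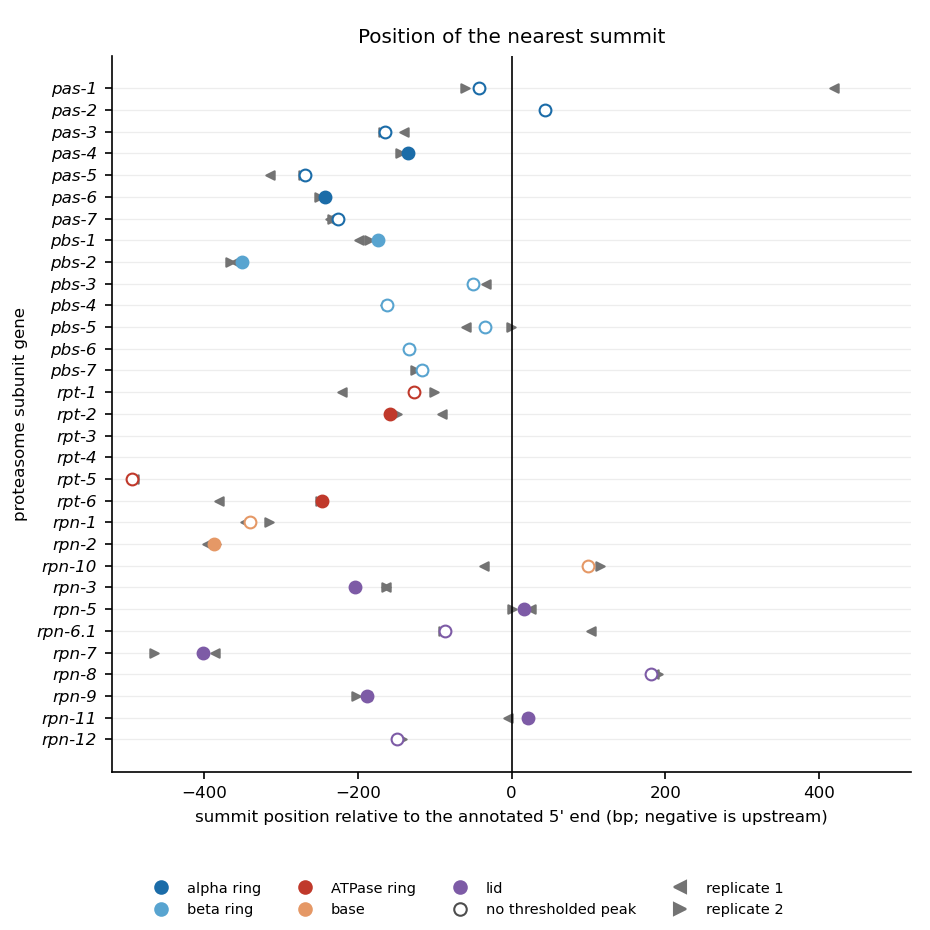
Position of the nearest summit relative to the annotated 5′ end of each proteasome subunit gene, in bp, negative upstream. Circles are pooled summits, filled for the 12 genes with a thresholded peak, and grey triangles are the replicates; 24 of the 29 circles lie left of the 5′ end.

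Many of these promoters face a second gene, so a peak cannot always be given to the subunit gene alone. A protein-coding neighbour in the divergent orientation within 1000 bp was present at 20 of the 31 subunit genes (64.5%), beside 17.5% of all protein-coding genes. Of these 20 genes 10 were bound, where the share was 20.2% over all autosomal genes with such a neighbour. Of the 11 without one 2 were bound, rpt-6 and rpn-11, where the share was 5.07% over autosomal genes of that kind. Both shares of the subunit genes were above those of genes with the same arrangement. These are counts of 10 and 2 genes, and no test was made.

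At 9 of the 12 bound genes the summit was also within 500 bp of the 5′ end of another protein-coding gene. The rpn-3 peak stood between rpn-3, 204 bp away, and hsp-110, a gene of the Hsp110 chaperone family, 240 bp away. The annotated non-coding RNA C30C11.14 was nearer than either, with its 5′ end 54 bp from the summit. The pas-4 peak was 134 bp from pas-4 and 143 bp from rpb-3, which encodes an RNA polymerase II subunit. The protein-coding neighbour was nearer to the summit at 4 genes. These neighbours were eif-6, a ribosome biogenesis factor facing pbs-2 (316 against 350 bp), aps-1, a clathrin adaptor subunit facing rpt-2 (143 against 158 bp), C23G10.7 facing rpn-2 (383 against 387 bp) and F49C12.9 facing rpn-7 (15 against 401 bp).

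The differences of 4 to 34 bp at 3 of these genes were small beside the 300 bp length of a region, whereas the rpn-7 peak lay at the other gene. The rpn-5 peak, 16 bp inside rpn-5, was 310 bp from scc-1, a cohesin gene. All 12 genes remained bound when the peaks with a summit within 250 bp of the 5′ end of a tRNA, snRNA, snoRNA, rRNA or miRNA gene were left out. Other annotated non-coding RNAs were not part of that filter, so peaks near them stayed in. The 5′ ends of C30C11.14, C36B1.16 and F29G9.10 lay 54, 87 and 24 bp from the summits of rpn-3, pas-4 and rpt-2.

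The sequence under the summit is shown for 5 of the 6 bound subunit genes of highest pooled signal, and for 3 of the 4 highest with a candidate region alone, so that the words counted below can be read in place. Each is 101 bases centred on the pooled summit, 5′ to 3′ on the strand of the subunit gene, from the RefSeq genome sequence of WBcel235 (ce11). They lie at chrIII:8447099-8447199 (rpn-3), chrIII:6198747-6198847 (rpn-2), chrIII:12370160-12370260 (rpt-6), chrII:11239057-11239157 (rpn-9), chrIV:1709869-1709969 (pbs-1), chrV:11982474-11982574 (rpt-1), chrIV:6910203-6910303 (rpn-1) and chrII:10100029-10100129 (pas-7). At rpn-2, rpt-6 and rpt-1 none of the words counted fell in the stretch shown. Capitals mark matches on either strand to GCGAGACC, AAAGGCGC, CTGTTTCA, TGTCAT or TATCAT.
rpn-3: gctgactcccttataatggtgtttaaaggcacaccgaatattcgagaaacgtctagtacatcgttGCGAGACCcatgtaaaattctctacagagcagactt
rpn-2: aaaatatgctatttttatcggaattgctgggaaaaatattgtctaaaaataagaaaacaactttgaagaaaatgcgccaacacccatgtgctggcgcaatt
rpt-6: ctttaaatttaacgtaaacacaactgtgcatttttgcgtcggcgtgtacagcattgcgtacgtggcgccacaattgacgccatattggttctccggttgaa
rpn-9: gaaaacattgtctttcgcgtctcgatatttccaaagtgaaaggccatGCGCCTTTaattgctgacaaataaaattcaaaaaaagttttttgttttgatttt
pbs-1: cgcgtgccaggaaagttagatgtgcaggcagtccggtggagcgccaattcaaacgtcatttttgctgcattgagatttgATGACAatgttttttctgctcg
rpt-1: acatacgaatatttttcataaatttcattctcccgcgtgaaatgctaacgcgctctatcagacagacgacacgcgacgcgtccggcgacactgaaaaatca
rpn-1: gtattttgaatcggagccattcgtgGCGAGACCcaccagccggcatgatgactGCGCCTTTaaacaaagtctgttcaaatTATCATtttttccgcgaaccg
pas-7: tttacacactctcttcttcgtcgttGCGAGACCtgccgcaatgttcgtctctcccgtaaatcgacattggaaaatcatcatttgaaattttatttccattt

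The words GCGAGACC and AAAGGCGC are frequent under the peaks of this experiment, and a few subunit genes had them. Within 100 bp of the summit, GCGAGACC occurred at 1 of the 12 bound subunit genes (rpn-3) and at 10.8% of all bound protein-coding genes. AAAGGCGC occurred at 1 of the 12 (rpn-9) and at 10.5%. Each word was also present at 4 of the 17 genes with a candidate region alone, in both cases including pas-7, rpn-1 and rpn-12. Of all 29974 nuclear pooled regions, near a gene start or not, 1.41% and 2.04% had them. The pas-7 summit lay 19 bp from the 5′ ends of the non-coding RNAs ZK945.12 and ZK945.13, and 225 bp from that of pas-7. The rpn-1 summit lay in an exon of the non-coding RNA T22D1.19, 340 bp from the 5′ end of rpn-1. CTGTTTCA, the sequence that precedes piRNA genes, was within 100 bp of the summit at rpn-3, 1 of the 12 bound subunit genes, and at 0.64% of all bound protein-coding genes. It was also at pbs-5, 1 of the 17 genes with a candidate region alone, and in 2.03% of the nuclear pooled regions. The median GC content of these 201 bp windows was 37.3% at bound subunit genes and 38.8% at all bound protein-coding genes.

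A shorter word, TGTCAT, was more frequent in these promoters. It is a core of the sequence that SKN-1 is known to bind. In the 300 bases from 250 before to 50 after the 5′ end, counting both strands, 12 of the 31 subunit promoters had it (38.7%), beside 16.3% of all 19973 promoters, 15.0% of autosomal promoters with a divergent neighbour and 8 of 78 ribosomal protein promoters (10.3%). Of the bound subunit genes 7 of 12 had it, and of the others 5 of 19. Over all 1406 bound protein-coding genes 12.8% of promoters had it, below the 16.3% of all promoters. The other SKN-1 core searched, TATCAT, was in 4 of 31 subunit promoters and in 19.4% of all promoters, so of these 2 words TGTCAT alone was above the share of all promoters. Where the coding sequence starts close to the 5′ end, as at rpn-7 and rpt-1, the window reaches into it and matches there are counted. A match is a string of letters and does not show that any factor was bound.

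The sites of TGTCAT in 6 of the 7 bound genes that had it are shown with 8 bases on each side, on the strand that reads TGTCAT in capitals, because the bases after the core were alike in several. In pas-6, pbs-1, rpt-2 and rpn-2 the first base of the match lies 194, 145, 121 and 230 bp upstream of the 5′ end. In rpn-7 and rpn-11 it lies 12 and 26 bp downstream. The coding sequence of rpn-7 also starts 12 bp downstream, so its match, read on the other strand, covers the start codon.
pas-6 (V): gcttatttTGTCATcctttcaa
pbs-1 (IV): aaaaacatTGTCATcaaatctc
rpt-2 (V): gcttgcatTGTCATcatcaacg
rpn-2 (III): acgaaattTGTCATtcgcaatc
rpn-7 (IV): gcagcctcTGTCATcctcctta
rpn-11 (II): cccgcaatTGTCATcctcacaa

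The same core was followed by C in 5 of these 6 sites, but not at pbs-2, the bound gene whose site is not shown. With that base, TGTCATC, a word chosen after the sites had been seen, the counts were 9 of 31 subunit promoters and 4.30% of all promoters. The 9 include the 5 whose sites the word was read from, so the count is no independent check of it. The genes were pas-2, pas-6, pbs-1, pbs-6, rpt-1, rpt-2, rpn-6.1, rpn-7 and rpn-11, so core and regulatory particle genes both had it, bound or not. At pbs-6 and rpn-7 the core, read on the other strand, covers the start codon. At rpt-1 it lies 22 bp downstream of the 5′ end, past the coding start at 3 bp. The base before the core was also alike in most of the sites shown. With that T, TTGTCAT, also chosen after the sites had been seen, was in 8 of 31 subunit promoters and 7.01% of all promoters. Within 100 bp of the ChIP summit, TGTCAT was present at 6 of the 12 bound subunit genes, pas-6, pbs-1, rpt-2, rpn-2, rpn-7 and rpn-11, beside 6.40% of all bound protein-coding genes and 7.28% of the 2075 nuclear thresholded peaks. At rpn-2 and rpn-7 the match near the summit is another one, 308 and 365 bp upstream of the 5′ end, and not the site shown.

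Of the 3 further subunit genes, rpn-6.2, rpn-13 and dss-1, none was bound, and rpn-13, a ubiquitin receptor gene, had the highest candidate signal at 30.5. Among 20 genes for regulators, ubiquitin supply and substrate delivery 6 were bound (30.0%), where 7.04% of all protein-coding genes were. The highest by far was cdc-48.1, which encodes the AAA ATPase that extracts ubiquitinated proteins, with a signal of 211 in replicate 1, 344 in replicate 2 and 538 in the pool. Its paralogue cdc-48.2 had a candidate region alone, at 20.8. The arsenite-inducible regulator aip-1 had a peak of 86.6 and uba-1, the ubiquitin-activating enzyme gene, one of 66.6.

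The remaining bound genes of this group were ubq-2, a ubiquitin fusion gene, at 61.8, the proteasome-associated deubiquitinase gene ubh-4 at 55.5 and skn-1 at 51.3. The skn-1 summit was exactly 500 bp upstream, at the limit of the window, and neither replicate had a region within that distance. The genes of the SKN-1 processing factors ddi-1 and png-1 were not bound, and png-1 had a candidate region at place 29707. The shuttle receptor gene rad-23 shares its promoter with rpn-12, and neither was bound.

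Genes of 2 other large complexes of the cytosol were set beside the proteasome genes. Ribosomal protein genes, by symbol, were bound at 53 of 78 (67.9%) with a median signal of 99.3, and genes of the CCT chaperonin at 5 of 8 with a median of 82.7. Bound ribosomal protein genes thus had a higher median than the 69.3 of bound proteasome genes. The 1000 highest regions reached 3 of 31 proteasome genes (9.68%), 35 of 78 ribosomal protein genes (44.9%) and 3 of 8 CCT genes (37.5%), and 3.42% of all protein-coding genes. Of the proteasome genes 12 were reached by the 2101 peaks and 19 by the 3000 highest regions (61.3%, with 9.48% of all genes). Of the 19 subunit genes without a peak, 7 lay between the threshold and place 3000 (36.8%), and 2.63% of all protein-coding genes without a peak did.

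The same sets were counted in each replicate. Of the 31 proteasome genes 5 were in the 2101 highest regions of replicate 1, 13 in those of replicate 2 and 3 in both, where the shares of all protein-coding genes were 6.19%, 7.01% and 4.17%. For the 78 ribosomal protein genes the counts were 47, 49 and 39, and for the 8 CCT genes 4, 5 and 3. The difference between the sets was not tested.

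**Figure D4:**
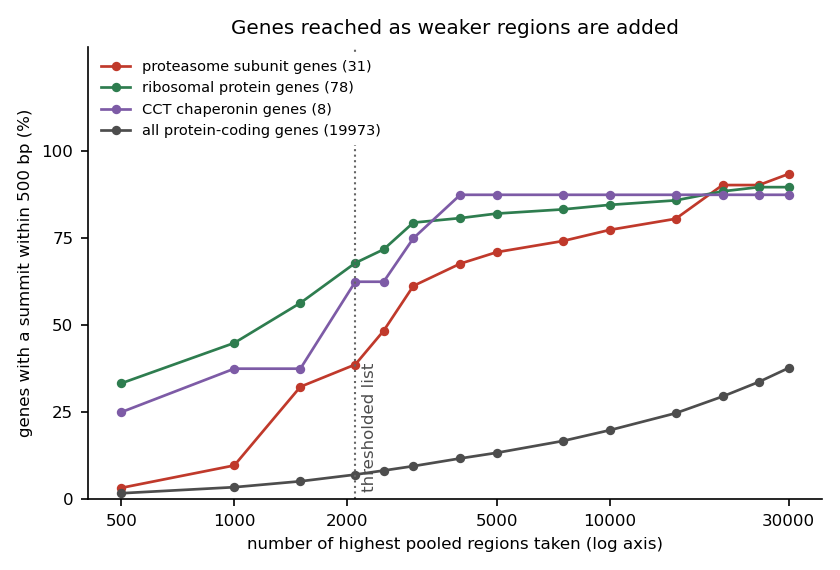
Share of genes with a summit within 500 bp (y axis, %) as more regions of the pooled list are taken from the highest signal down (x axis, log), for proteasome subunit, ribosomal protein, CCT chaperonin and all protein-coding genes. The proteasome curve climbs from 9.68% at 1000 regions to 61.3% at 3000, while all genes go from 3.42% to 9.48%.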

How the data were processed

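The data were ChIP-seq peak lists from 1 group with 2 biological replicates. Per the deposited notes, the authors called regions on ce11 alignments of each replicate, and of both together, with a control alignment. Peaks of the optimal set by irreproducible discovery rate (IDR) make up the thresholded list, per the file notes. Which aligner, caller and filters were used is not given in the sources used here. Signal values and summit offsets were taken as deposited by the authors. The control, the score column and the lists on ce10 were not used here. Coordinates are 1-based on ce11, the same assembly as WBcel235, with genes from Ensembl release 115.

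For each of 19973 nuclear protein-coding genes, the summit nearest to the outermost annotated 5′ end within 500 bp was taken. The assignment was tested on simulated data. Motifs were counted on both strands of RefSeq sequence. The subunit genes, the other lists and the words GCGAGACC, AAAGGCGC and CTGTTTCA were chosen with earlier results of these data known. Every subunit gene is reported. Of other genes, those named share a summit with a subunit gene, lie next to one where a summit falls, or belong to the fixed lists. Counts are given beside those of all genes, with no test. Alternatives changed the window, the list of peaks, the 5′ end and the way shared peaks were given to genes. Calculations used Python 3.11.15 with NumPy 2.4.6 and pandas 2.3.3, and figures were drawn with matplotlib 3.10.9.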

Additional observations from a re-analysis of the deposited data

How the results depend on the processing

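The count of bound proteasome subunit genes stayed within 1.5 times of 12 with summits within 250 bp (9) or 1000 bp (14), with any transcript start (13), with each summit given to its nearest 5′ end (8) and without peaks at small RNA genes (12). It fell to 4 with the 1050 peaks of highest signal (core 1, regulatory 3, all protein-coding genes 3.64%) and to 3 when the region had to overlap the 5′ end (core 1, regulatory 2, all genes 2.53%), where the median summit turned to 16 bp downstream. With each summit given to its nearest 5′ end the regulatory count was 5 and all genes 5.49%. The share of all genes was 4.50% within 250 bp and 9.27% within 1000 bp.

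With 1 replicate at a time the counts ran from 5 (without replicate 2) to 13 (without replicate 1), for the core from 1 to 4, for the regulatory particle from 4 to 9, and for all genes from 6.19% to 7.01%. Only 3 of the 12 bound genes remained without replicate 2, and all 12 remained without replicate 1. The median summit offset ran from -202 to -36 bp, and the median percentile of subunit genes with a candidate region from 83.9 to 92.7. A percentile for a single gene counted as moved when it differed from the reported one by at least the SD between the values of replicates 1 and 2. A changed window keeps the same nearest region or drops the gene, so it could not move a percentile, and such values are no sign of stability. Of 135 alternative percentiles for single subunit genes 29 moved, 23 of them down, and all 29 came from 1 replicate alone. They include 1 value each for pas-2, pbs-6, rpt-5 and rpn-12, which had a region in 1 replicate and so no spread between replicates to be set against. The cause of these changes was not tested. No paired analysis was possible because there was 1 group. What depth limits is unknown, because no read counts were given.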
